A study of Rattus norvegicus with 20 samples.

Results

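The genes described here are the interleukins and the interleukin receptors of the rat, measured in isolated renal vasculature. Members were all transcripts of the array with a single platform gene symbol that starts with Il and a digit, and where a gene had several transcripts, the one with the highest mean log2 intensity over all 20 arrays was taken. This gave 75 genes of 18166 in all. By known role, 38 encode ligands, secreted antagonists or the binding protein of IL-18, and 37 encode receptor chains, among them Il22ra2, a soluble receptor that binds IL-22. Another 6 listed genes (Il2rb, Il15ra, Il27, Il12rb1, Il17d and Il4i1) had no transcript with a single symbol and were not analysed here. Male Wistar Kyoto rats were exposed to maternal separation (MatSep), in which pups are taken from the dam's cage every day in early postnatal life, or were left with the dam as controls. The groups were MatSep and control rats at postnatal day 180 (P180), and MatSep and control rats at postnatal day 10 (P10), with 5 rats and 5 arrays in each of the 4 groups and no drug or transgene in any of them. The P10 rats were sampled while the daily separation was still going on, and the P180 rats long after it had ended.

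Several features of the design limit what the groups can show. The labels call the controls littermates while the methods describe litters that were not handled, and the litter that a rat came from is not stated, so p-values measure the spread between these rats. Kidneys of neonates and adults were grated over sieves of different pore size, and the sample numbers of all P180 rats (1 to 11) come before those of all P10 rats (14 to 24). Age, sieve and run of sample numbers therefore cannot be told apart. Each run held equal numbers of MatSep and control rats.

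Interleukins are secreted messengers through which immune, stromal and epithelial cells signal to each other. Most of them bind a receptor of 2 or more chains, one that is particular to the ligand and one that is shared by a family, such as the common gamma chain, the common beta chain or gp130. Members of the IL-1 family act through MyD88 and NF-kB and are held in check by antagonists, binding proteins and decoy receptors, while most other interleukins act through JAK kinases and STAT factors. In the kidney, resident macrophages, tubule epithelium, endothelium and perivascular fibroblasts are known sources or targets.

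The preparations held vessel markers and also markers of other renal cells. Mean log2 intensities per array were 9.58 to 11.39 over 7 smooth muscle and pericyte markers, 9.63 to 10.46 over 7 endothelial markers and 11.40 to 11.94 over 11 tubule markers, so that tubule RNA was present at both ages. Arrays had medians of 6.00 to 6.18 on the log2 scale, and arrays of the same group correlated at 0.985 to 0.996 across transcripts. Many interleukin transcripts were dim. The 95th percentile of 232 olfactory and vomeronasal receptor transcripts, which a kidney vessel is not expected to use, was a log2 intensity of 6.02. Of the members, 33 (44%) had a mean above that level and 42 did not, whereas 63.4% of all transcripts lay above it. Those above it were 23 of the 37 receptor chains and 10 of the 38 ligands. A difference between groups can be compressed in a dim transcript, and a flat one does not show that the gene was unchanged. Where all 5 arrays of the dimmer group lay at or under this level, a fold is given only as a lower bound. The bound sets the mean of the brighter group against the mean of, per array, the higher of 6.02 and the measured value. No fold is given where both groups lay there, or where the mean of the brighter group did not exceed the other. Log2 differences of such transcripts are the measured ones.

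The first question was how the interleukin system of the renal vasculature differed between adult and neonatal life. In control rats, 31 of the 75 members were higher at P180 than at P10 (41.3%, against 24.7% of all 18511 transcripts tested) and 6 were lower (8%, against 20.6% of all transcripts), by limma's moderated test with Benjamini-Hochberg adjustment over all transcripts. The other 38 did not pass. Of the 37 that passed, 17 had a mean over all arrays above the level of the olfactory receptors and 20 did not. For 14 of the 37, every array of both ages lay at or under that level. The median difference was 0.16 on the log2 scale over the members and 0.05 over all transcripts. All 5 P180 values lay above all 5 P10 values for 27 members (16.3% of all transcripts did so), and all 5 lay below for 3 (15% of all transcripts). By role, 17 ligands were higher and none was lower, and 14 receptor chains were higher and 6 lower.

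In MatSep rats, the same comparison of ages gave 25 members higher at P180 (33.3%, against 27.4% of all transcripts) and 5 lower (6.67%, against 22.2%). Of the 30 members that passed, 9 had every array of both ages at or under the level of the olfactory receptors. The median difference was 0.15 over the members and 0.07 over all transcripts. The ages did not overlap for 17 members that were higher (17.1% of all transcripts) and 2 that were lower (16.8%). Ligands again passed in the upward direction, 15 of 38, with none lower, and receptor chains in both, 10 higher and 5 lower of 37. A total of 25 members passed in both MatSep and control rats, 24 of them in the same direction and 1, Il1r1, in opposite directions, with the MatSep call lost in 6 of the alternatives listed further on. Another 12 passed in control rats and 5 in MatSep rats, and 33 passed in neither. A member that passed in one of the groups of rats is not shown to differ between them, and the test of that difference is given with the MatSep comparisons.

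**Figure D1:**
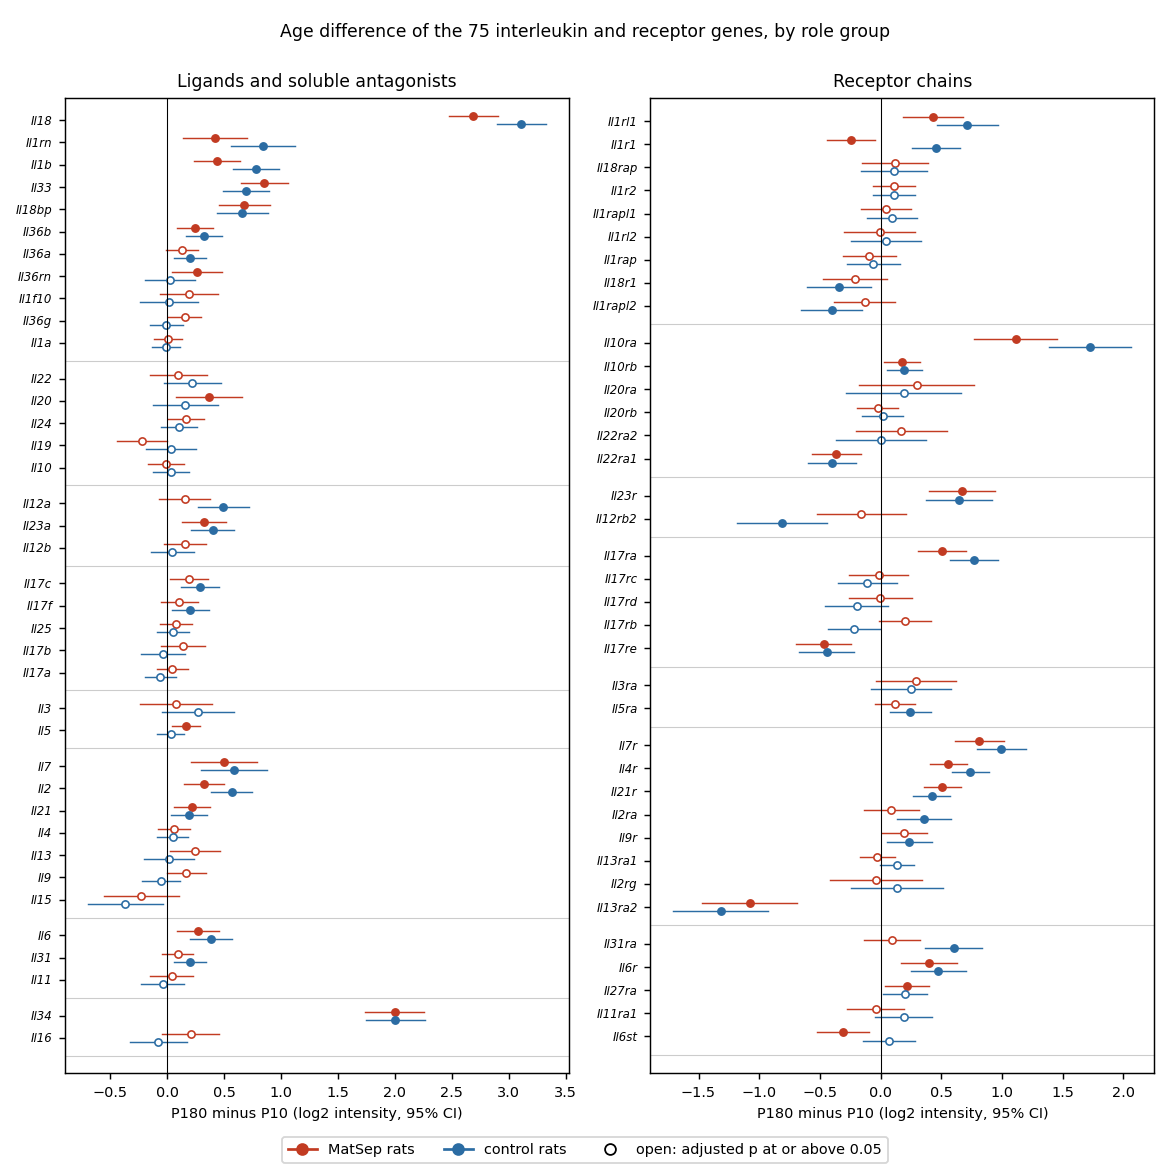
Difference in log2 intensity, P180 minus P10, of each of the 75 members with its 95% confidence interval, ordered by role, with ligands in the left panel and receptor chains in the right panel. Red marks MatSep rats, blue marks control rats, and open symbols mark an adjusted p of 0.05 or above. Il18 and Il34 stand furthest to the right among the ligands, and Il13ra2 furthest to the left among the receptor chains.

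Among the IL-1 family ligands and their antagonists, 7 of 11 were higher at P180 in control rats and 7 of 11 in MatSep rats, none was lower, and the median difference was 0.32 in control rats. Of all transcripts, 27.4% were higher at P180 in MatSep rats and 24.7% in control rats, and 22.2% and 20.6% were lower. These shares are the comparison for the counts of each role group below. Il18, which encodes a cytokine that is cut into its active form by caspase-1 and drives interferon gamma production, had the largest fitted age difference of all members. Its log2 intensities at P180 were 8.31, 8.28, 8.13, 8.17 and 8.26 in MatSep rats and 8.28, 8.44, 8.29, 8.20 and 8.39 in control rats. At P10 they were 5.24, 5.66, 5.49, 5.46 and 5.87 in MatSep rats and 5.13, 5.48, 5.31, 5.16 and 4.97 in control rats. Every P180 array was well above every P10 array, and the P10 arrays lay below the level of the olfactory receptors. The measured difference was 2.69 ± 0.10 (SE, log2) in MatSep rats, at least 4.64-fold higher (adjusted p = 2.52e-14, limma), and 3.11 ± 0.10 in control rats, at least 4.93-fold higher (adjusted p = 2.78e-15, limma). Il18bp, which encodes the soluble protein that binds and neutralises IL-18, rose as well, by 0.68 ± 0.11 in MatSep rats and 0.66 ± 0.11 in control rats.

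The promoter of Il18 is shown because this gene had the largest fitted difference. The 250 bases before its RefSeq start lie on the plus strand of the GRCr8 assembly at chr8:59801822-59802071, have a GC content of 38.4% and hold none of the 5 motifs searched, which are spelled out further on.
Il18: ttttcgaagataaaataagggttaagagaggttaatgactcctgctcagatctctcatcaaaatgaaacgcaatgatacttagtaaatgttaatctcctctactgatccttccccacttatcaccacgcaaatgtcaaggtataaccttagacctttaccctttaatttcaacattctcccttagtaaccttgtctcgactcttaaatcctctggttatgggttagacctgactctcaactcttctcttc

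Il33 encodes an alarmin that endothelial and stromal cells keep in the nucleus and release on damage. Its log2 intensities at P180 were 11.16, 11.04, 10.82, 11.02 and 10.99 in MatSep rats and 10.90, 10.86, 10.99, 10.96 and 10.92 in control rats. P10 arrays gave 10.42, 10.20, 9.84, 10.03 and 10.29 in MatSep rats and 10.34, 10.05, 10.11, 10.18 and 10.48 in control rats. The ages did not overlap in either group of rats, and Il33 rose by 0.85 ± 0.10 in MatSep rats (adjusted p = 4.05e-07, limma) and by 0.69 ± 0.10 in control rats (adjusted p = 6.54e-06, limma). Il1b, the classical pro-inflammatory IL-1, and Il1rn, the antagonist that competes with it for the receptor, both rose with age, although both were dim. Il1b rose by 0.44 ± 0.10 in MatSep rats and 0.78 ± 0.10 in control rats, and Il1rn by 0.42 ± 0.13 and, in control rats, 0.84 ± 0.13. All arrays of Il1rn, and all MatSep arrays of Il1b, lay under the level of the olfactory receptors. In control rats Il1b was at least 1.08-fold higher at P180. Il36b, an IL-36 agonist, rose by 0.24 and 0.32 in MatSep and control rats, with all of its arrays under the level of the olfactory receptors. Il1a did not pass, with differences of 0.01 in MatSep rats and -0.01 in control rats.

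The IL-1 family receptor chains moved in different directions. In control rats 2 of 9 were higher and 2 lower, and in MatSep rats 1 was higher and 1 lower. Shares over all transcripts were 24.7% higher and 20.6% lower in control rats, and 27.4% and 22.2% in MatSep rats. Il1rl1, which encodes ST2, the receptor of IL-33, had measured rises of 0.43 ± 0.12 in MatSep rats and 0.72 ± 0.12 in control rats. All P10 arrays of Il1rl1 lay under the level of the olfactory receptors, and 1 MatSep and 2 control arrays at P180 lay above it. The lower bound was 1.01-fold in control rats, and none could be given in MatSep rats. Il18r1, the ligand-binding chain for IL-18, had differences of -0.21 ± 0.13 in MatSep rats, which did not pass, and -0.34 ± 0.13 in control rats (adjusted p = 0.0319, limma), where the ages overlapped. This fall did not pass after a further quantile normalization (adjusted p = 0.141), in a fit to the compared groups only (0.0694), or without P180 control replicate 2 (0.0666) or 3 (0.107) or P10 control replicate 1 (0.0558), 3 (0.0518), 4 (0.0739) or 5 (0.0679), all in limma. Il18rap, the second chain of that receptor, did not pass in MatSep rats (0.12) or control rats (0.11). Il1r1, the signalling receptor of both forms of IL-1, fell by 0.25 ± 0.09 in MatSep rats (adjusted p = 0.0341, limma) and rose by 0.46 ± 0.09 in control rats (adjusted p = 0.000422, limma). Its values are given with the MatSep comparisons. Il1r2, the decoy receptor, and Il1rap, the shared second chain, did not pass in either group of rats.

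Il34 encodes a ligand of the colony stimulating factor 1 receptor that keeps tissue macrophages alive. Its log2 intensities at P180 were 8.21, 7.88, 7.67, 8.19 and 8.12 in MatSep rats and 8.13, 8.24, 8.64, 8.01 and 8.09 in control rats. At P10, MatSep rats had 6.21, 6.18, 5.87, 5.87 and 5.97 and control rats had 6.34, 6.21, 6.01, 6.38 and 6.13. The ages were far apart and the MatSep and control rats overlapped at each age. At P10, 3 of the MatSep arrays and 1 of the control arrays lay at or under the level of the olfactory receptors. Il34 rose 3.99-fold in MatSep rats (2.0 ± 0.12 on the log2 scale, adjusted p = 4.11e-11, limma) and 4.01-fold in control rats (2.0 ± 0.12, adjusted p = 3.64e-11, limma).

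Common gamma chain ligands with IL-13 had 3 of 7 members higher in MatSep rats and 3 of 7 in control rats, and none lower. Il7, which lymphocytes need to survive, rose by 0.50 ± 0.14 in MatSep rats and 0.59 ± 0.14 in control rats, Il2 by 0.32 ± 0.08 and, in control rats, 0.57 ± 0.08, and Il21 by 0.21 and 0.19 in MatSep and control rats. All arrays of Il2 and Il21 lay under the level of the olfactory receptors, as did all P10 arrays of Il7. At P180, 1 MatSep and 2 control arrays of Il7 lay above it, and no lower bound could be given. Il4, Il9, Il13 and Il15 did not pass in either group of rats. Of the 8 receptor chains, 3 rose and 1 fell in MatSep rats, and 5 rose and 1 fell in control rats. Beside them, 27.4% of all transcripts rose and 22.2% fell in MatSep rats, and 24.7% and 20.6% in control rats.

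Il7r, the specific chain of the IL-7 receptor, had log2 intensities at P180 of 6.46, 6.56, 6.52, 6.45 and 6.36 in MatSep rats and 6.89, 6.61, 6.65, 6.42 and 6.39 in control rats. Its P10 values were 5.42, 5.61, 5.66, 5.72 and 5.88 in MatSep rats and 5.44, 5.61, 5.77, 5.66 and 5.48 in control rats. The ages did not overlap, and all P10 arrays lay under the level of the olfactory receptors. The gene was at least 1.37-fold higher at P180 in MatSep rats (measured means 6.47 against 5.66 on the log2 scale, adjusted p = 5.68e-07, limma) and at least 1.49-fold higher in control rats (6.59 against 5.60, adjusted p = 3.47e-08, limma). Il4r, the chain that binds IL-4 and is shared with the IL-13 receptor, had P180 values of 9.38, 9.60, 9.34, 9.54 and 9.49 in MatSep rats and 9.54, 9.63, 9.77, 9.56 and 9.43 in control rats. It had P10 values of 8.97, 8.74, 9.01, 8.89 and 8.94 in MatSep rats and 8.81, 8.83, 8.95, 8.87 and 8.76 in control rats. It too was higher on every P180 array, by 0.56 ± 0.07 in MatSep rats (adjusted p = 1.69e-06, limma) and 0.74 ± 0.07 in control rats (adjusted p = 3.58e-08, limma). Il21r rose by 0.51 ± 0.07 in MatSep rats and by 0.42 ± 0.07 in control rats.

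Il13ra2 encodes a receptor that binds IL-13 tightly and mainly serves as a decoy. It was the member with the largest fitted fall, with log2 intensities at P180 of 5.56, 5.45, 5.73, 5.19 and 5.25 in MatSep rats and 5.37, 5.05, 5.51, 5.10 and 5.39 in control rats. At P10 it had 6.61, 6.73, 6.39, 6.42 and 6.42 in MatSep rats and 7.48, 6.36, 6.36, 6.73 and 6.09 in control rats. All P10 arrays were above all P180 arrays, with a single P10 control array, the highest, apart from its group. All P180 arrays lay under the level of the olfactory receptors. The measured fall was 1.08 ± 0.18 in MatSep rats (at least 1.41-fold lower, adjusted p = 6.68e-05, limma) and 1.32 ± 0.18 in control rats (at least 1.5-fold lower, adjusted p = 6.59e-06, limma). A second transcript assigned to this gene had a mean under that level and differed by 0.07 between the ages in both MatSep and control rats, so the fall rests on 1 transcript. Il13ra1, the signalling chain, did not pass in MatSep rats (-0.03) or in control rats (0.13). A second Il13ra1 transcript, with a mean log2 intensity of 9.85, differed by 0.01 in MatSep rats and 0.21 in control rats.

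In the IL-10 family, 2 of 6 receptor chains rose and 1 fell in each group of rats. Over all transcripts, 27.4% rose and 22.2% fell in MatSep rats, and 24.7% rose and 20.6% fell in control rats. Il10ra, the chain that binds IL-10, had log2 intensities at P180 of 6.72, 6.57, 7.04, 7.18 and 6.78 in MatSep rats and 7.51, 7.38, 7.50, 6.64 and 7.27 in control rats. The P10 values were 5.59, 5.54, 5.88, 5.91 and 5.80 in MatSep rats and 5.32, 5.66, 5.72, 5.14 and 5.82 in control rats. P180 and P10 arrays did not overlap, and 1 P180 control array lay among the MatSep arrays of its age. All P10 arrays lay under the level of the olfactory receptors. The measured rise was 1.11 ± 0.16 in MatSep rats (at least 1.79-fold, adjusted p = 9.19e-06, limma) and 1.73 ± 0.16 in control rats (at least 2.36-fold, adjusted p = 2.42e-08, limma). Il10 itself did not pass, with -0.01 in MatSep rats and 0.03 in control rats, on a dim transcript. Il22ra1, the epithelial receptor chain for IL-22, fell by 0.36 ± 0.09 in MatSep rats and 0.40 ± 0.09 in control rats. Of the 5 ligands of this family, 1 (Il20, 0.37 ± 0.14) was higher at P180 in MatSep rats and none passed in control rats. The rise of Il20 did not pass with array weights (adjusted p = 0.051), in a fit to the compared groups only (0.0701), or without P180 MatSep replicate 2 (0.0872) or 5 (0.102) or P10 MatSep replicate 1 (0.0937) or 3 (0.0769), all in limma.

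The 2 measured receptor chains of the IL-12 family are neighbours on the genome and had age differences of opposite sign in control rats. Il23r, the specific chain of the IL-23 receptor, had dim log2 intensities at P180 of 5.18, 5.64, 5.45, 5.41 and 5.88 in MatSep rats and 5.64, 5.45, 5.39, 5.85 and 5.74 in control rats. At P10 the values were 4.63, 4.85, 4.93, 4.98 and 4.81 in MatSep rats and 5.06, 5.33, 4.73, 4.92 and 4.80 in control rats. Within each group of rats the ages did not overlap, and the rise was 0.67 ± 0.13 in MatSep rats (adjusted p = 0.000202, limma) and 0.65 ± 0.13 in control rats (adjusted p = 0.000313, limma). Il12rb2, the signalling chain of the IL-12 receptor, had P180 values of 6.86, 6.81, 6.37, 6.52 and 6.84 in MatSep rats and 5.76, 6.38, 6.37, 6.57 and 6.76 in control rats. Its P10 values were 7.14, 7.25, 6.38, 6.80 and 6.62 in MatSep rats and 7.47, 7.24, 7.06, 6.96 and 7.18 in control rats. The control ages did not overlap, and the MatSep ages did. The difference was -0.16 ± 0.17 in MatSep rats, which did not pass (adjusted p = 0.465, limma), and in control rats the gene fell by 0.81 ± 0.17 (adjusted p = 0.000712, limma). At P10, Il12rb2 also differed by -0.44 between the runs of sample numbers 19 to 24 and 14 to 17 (adjusted p = 0.0135, limma), and the part of that difference in the result was not tested. Among the 18511 transcripts tested, 3539 differed between these runs, and among the 75 members 9 did. Beside Il12rb2 these members were Il10rb, Il15, Il16, Il18rap, Il1rap, Il1rapl2, Il22ra2 and Il2rg. At P180 the runs differed in 48 transcripts, with 0 members among them.

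The promoters of this pair are shown because the neighbours, of which Il23r was dim, moved in opposite directions in control rats. Both lie on the minus strand of GRCr8 and are written from 250 bases before the RefSeq start up to it, Il23r at chr4:98003760-98004009 and Il12rb2 at chr4:97844938-97845187. Capitals mark the matches to the motifs searched. In Il23r they are a PU.1 match on the opposite strand, 75 to 70 bases before the start, and an IRF match 64 to 55 bases before it. In Il12rb2 they are a STAT match 177 to 169 bases before the start.
Il23r: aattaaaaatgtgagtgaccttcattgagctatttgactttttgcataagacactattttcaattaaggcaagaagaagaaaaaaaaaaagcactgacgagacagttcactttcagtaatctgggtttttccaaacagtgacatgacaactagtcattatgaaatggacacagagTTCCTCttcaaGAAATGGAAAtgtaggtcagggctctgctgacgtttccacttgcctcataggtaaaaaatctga
Il12rb2: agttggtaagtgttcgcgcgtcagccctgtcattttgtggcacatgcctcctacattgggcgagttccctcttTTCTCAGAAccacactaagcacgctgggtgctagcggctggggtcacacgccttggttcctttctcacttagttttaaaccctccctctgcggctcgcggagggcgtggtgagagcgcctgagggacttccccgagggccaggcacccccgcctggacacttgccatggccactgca
The windows differ in base composition, with a GC content of 36.4% for Il23r and 60% for Il12rb2.

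Over all members, 59 of 75 matched the RefSeq promoter table, and their median GC content was 48.4%, against 52% over all 27457 promoters. The motifs were searched on both strands of the 250 bases. An NF-kB motif (GGGA and TTTCC with 1 base of any kind between them) was found before 1 member, Il6, and in 0.317% of all promoters. A STAT motif (TTCNNNGAA) was found in 6 members and 7.52% of all, an AP-1 motif (TGANTCA) in 5 members and 6.36% of all, and a PU.1 motif (GAGGAA) in 16 members and 23.2% of all. An IRF motif (GAAA and again GAAA with 2 bases of any kind between them) was found in 6 members and 3.29% of all. These matches are a description of letters only.

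Ligands of the IL-12 family rose where they passed. Il23a, the specific subunit of IL-23, rose by 0.33 ± 0.09 in MatSep rats and 0.40 ± 0.09 in control rats. Il12a, the specific subunit of IL-12, had 0.15 ± 0.10 in MatSep rats, which did not pass. In control rats Il12a rose by a measured 0.49 ± 0.10, at least 1.13-fold, with all P10 arrays under the level of the olfactory receptors. In the gp130 family, Il6 rose by 0.27 ± 0.09 in MatSep rats and 0.38 ± 0.09 in control rats, and its specific receptor chain Il6r by 0.40 ± 0.11 and, in control rats, 0.48 ± 0.11. All arrays of Il6 lay under the level of the olfactory receptors. The shared chain Il6st, which encodes gp130, fell by 0.31 ± 0.10 in MatSep rats (adjusted p = 0.0153, limma) and had a difference of 0.07 ± 0.10 in control rats, which did not pass. In the IL-17 family, Il17ra, the chain that most IL-17 receptors share, rose by 0.51 ± 0.09 in MatSep rats (adjusted p = 0.000148, limma) and 0.77 ± 0.09 in control rats (adjusted p = 1.06e-06, limma). Il17re, the chain that binds IL-17C, fell by 0.47 ± 0.11 and, in control rats, 0.44 ± 0.11. None of the 5 IL-17 ligands passed in MatSep rats, and 2 did in control rats, Il17c (0.29 ± 0.08) and Il17f (0.20 ± 0.08). All arrays of both genes lay under the level of the olfactory receptors. In the common beta chain family, Il5, the eosinophil growth factor, was higher in MatSep rats by 0.17 ± 0.06, and its receptor Il5ra in control rats by 0.25 ± 0.08. All arrays of Il5 and Il5ra lay under this level as well. The Il5ra call was lost after a further quantile normalization (adjusted p = 0.0569), in a fit to the compared groups only (0.0503) and without P180 control replicate 1 (0.0506), all in limma.

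**Figure D2:**
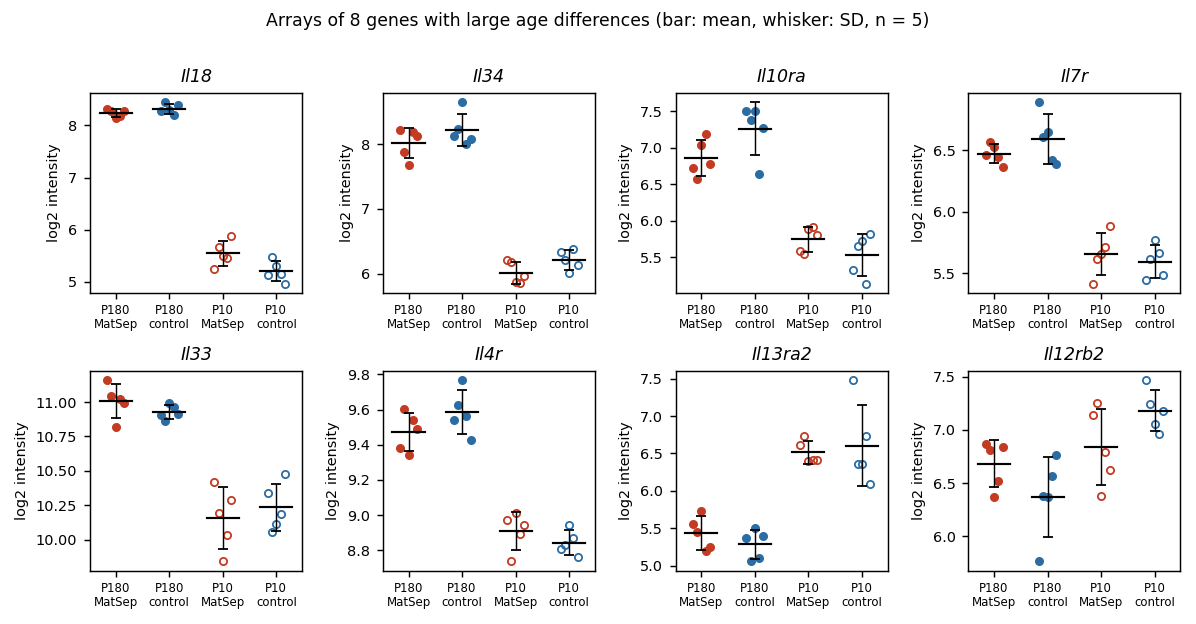
Log2 intensity on each array for 8 members with large age differences. Groups run from P180 MatSep and P180 control (filled points) to P10 MatSep and P10 control (open points), with a bar at the mean and a whisker of 1 SD (n = 5). Il18 and Il34 show the widest gap between the ages, Il13ra2 lies lower at P180, and Il12rb2 overlaps between the ages in MatSep rats.

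Some neighbouring members moved together and others in opposite directions. The IL-1 receptor block runs Il1r2, Il1r1, Il1rl2, Il1rl1, Il18r1 and Il18rap in RefSeq, with 1 other gene between the first pair. In control rats it held 2 genes that rose (Il1r1 and Il1rl1), 1 that fell (Il18r1) and 3 that did not pass. The block of IL-36 genes and IL-1 antagonists runs Il36g, Il36a, Il36b, Il36rn, Il1f10 and Il1rn, and those that passed, 3 in each group of rats, all rose, with the largest difference in control rats at the end of the block, in Il1rn. All arrays of the genes in this block lay under the level of the olfactory receptors. Of the neighbours Il6st and Il31ra, Il6st fell in MatSep rats while Il31ra, a chain of the IL-31 receptor, had 0.10 there and did not pass. In control rats Il31ra rose by 0.60 ± 0.11 and Il6st had 0.07. All P10 control arrays of Il31ra lay under the level of the olfactory receptors, as did all but 1 of its P180 control arrays, and no lower bound could be given. Il4r and Il21r rose together in both groups of rats, as did Il2 and Il21.

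**Figure D3:**
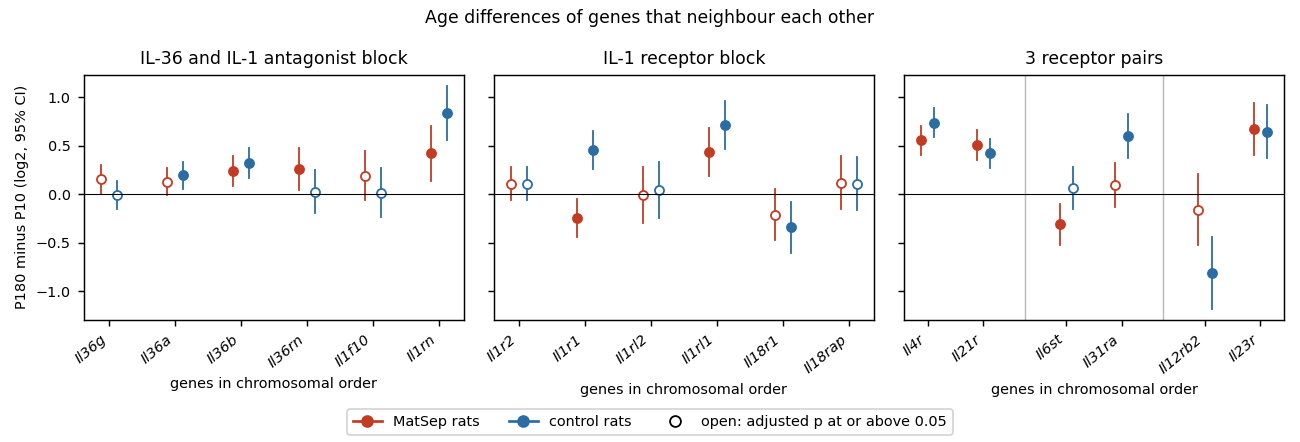
Age difference in log2 intensity, P180 minus P10, of members that lie next to each other, drawn in chromosomal order and not to genomic scale, with red for MatSep rats and blue for control rats. Rises stand beside falls in the IL-1 receptor block and, in control rats, in the Il12rb2 and Il23r pair, whereas Il4r and Il21r lie above 0 in both groups of rats.

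Markers of some immune cells moved with age in the same libraries. Macrophage markers (15 measured) had mean log2 intensities per array of 8.14 to 8.38 in P180 MatSep rats and 8.21 to 8.37 in P180 control rats, against 6.64 to 7.09 in P10 MatSep rats and 6.41 to 6.82 in P10 control rats. Of these markers 12 rose and 1 fell in MatSep rats, and 11 rose and 1 fell in control rats, where Cybb, a subunit of the phagocyte oxidase, differed by 3.16 and Lyz2, a lysozyme, by 3.09. T cell markers (12 measured) had 6.12 to 6.35 and 6.25 to 6.47 in P180 MatSep and control rats, against 5.54 to 5.77 and 5.57 to 5.73 in P10 MatSep and control rats. All 12 rose in MatSep rats and 11 in control rats. Of 6 NK cell, 5 B cell, 7 mast cell and 9 neutrophil markers, 3, 1, 1 and 2 rose in control rats, and 1 mast cell marker fell. In MatSep rats 4, 3, 1 and 1 of them rose, and 2 mast cell markers and 1 neutrophil marker fell. Most fibroblast markers (9 measured) went the other way. Their means were 8.66 to 9.17 in P180 MatSep rats and 8.70 to 9.23 in P180 control rats, against 10.40 to 10.89 in P10 MatSep rats and 9.56 to 10.48 in P10 control rats. Of these markers 1 rose and 8 fell in MatSep rats, and 2 rose and 6 fell in control rats. Cycling-cell markers (6 measured) also fell in control rats, all 6 of them. The part of these markers in the age differences of the interleukin genes was not tested, and in whole preparations fewer cells of a type and less RNA per cell cannot be told apart.

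Genes that act with the interleukins were counted from lists. A list of inflammasome and processing genes had 7 measured. The inflammasome is the complex that activates IL-1 beta and IL-18. Of the 7 genes, 6 rose in MatSep rats (median 0.85) and 6 in control rats (median 1.17). Casp1, the enzyme that cuts both cytokines, rose by 1.43 ± 0.13 in MatSep rats (adjusted p = 1.44e-08, limma) and 1.80 ± 0.13 in control rats (adjusted p = 4.75e-10, limma), and the sensor Nlrp3 and the adaptor Pycard rose by 1.28 ± 0.11 and 1.17 ± 0.10 in control rats. Of 20 genes of IL-1 and IL-18 signalling, 11 rose and 2 fell in MatSep rats, and 12 rose and 2 fell in control rats. Nfkbia, the inhibitor that holds NF-kB in the cytoplasm, rose by 0.95 ± 0.10 in MatSep rats and 1.11 ± 0.10 in control rats, and Tab2, an adaptor of the kinase TAK1, fell by 0.41 ± 0.06 in control rats. Of 9 JAK and STAT genes, 3 rose in MatSep rats and 4 in control rats, with Stat2 and Stat5a each 0.79 higher in control rats, and none fell. For comparison, 27.4% of all transcripts were higher at P180 in MatSep rats and 24.7% in control rats, and 22.2% and 20.6% were lower.

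Feedback inhibitors went both ways, with 3 of 11 higher and 3 lower in MatSep rats, and 6 higher and 3 lower in control rats. Among them the phosphatase Ptpn6 rose by 1.18 ± 0.10 and Socs2 fell by 0.58 ± 0.10 in control rats. Of 14 partner cytokines and receptors, 5 rose and 2 fell in each group of rats. Csf1r, the receptor through which IL-34 acts and also one of the macrophage markers, rose by 1.04 ± 0.13 in MatSep rats and 1.60 ± 0.13 in control rats. Of 17 acute and inflammatory target genes, 3 rose and 5 fell in MatSep rats, and 3 rose and 3 fell in control rats. Beside these lists, 27.4% of all transcripts rose and 22.2% fell in MatSep rats, and 24.7% rose and 20.6% fell in control rats. Those that fell in control rats included Ptgs2, the inducible cyclooxygenase of prostaglandin synthesis, by 4.25 ± 0.17 (adjusted p = 4.35e-14, limma), and Fgb, a fibrinogen chain, by 1.27 ± 0.18. Ccl2, a monocyte chemokine, rose by 1.01 ± 0.15 in control rats.

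The second question was what maternal separation did to these genes during the exposure. At P10, none of the 75 members passed the adjusted threshold between MatSep and control rats in limma (0.0162% of all transcripts were higher and 0% lower), and the smallest adjusted p was 0.283. At an unadjusted p under 0.05, 3 members were higher (5.1% of all transcripts were) and 5 lower (4.57% of all transcripts were). The 3 were Il18 (0.34 ± 0.10, adjusted p = 0.283), Il1r1 (0.31 ± 0.09, adjusted p = 0.283) and Il6st (0.22 ± 0.10, adjusted p = 0.483) in limma. Those with negative differences were Il36g, Il17rb, Il21r, Il20 and Il13. Il18 was dim at this age, with all of its P10 arrays under the level of the olfactory receptors.

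Il36g, an IL-36 agonist of barrier epithelium, was the 1 member whose P10 groups did not overlap (0.945% of all transcripts were lower without overlap and 0.724% higher). It had 4.54, 4.55, 4.44, 4.59 and 4.57 in MatSep rats and 4.86, 4.65, 4.72, 4.70 and 4.82 in control rats. All of these lay far under the level of the olfactory receptors, and the difference was -0.21 ± 0.07 (adjusted p = 0.318, limma). Il17rb, the receptor chain for IL-25, had 6.71, 6.45, 6.58, 6.75 and 6.94 in P10 MatSep rats and 6.83, 6.88, 7.25, 6.99 and 7.0 in P10 control rats. The highest MatSep rat lay above 2 of the controls, and the difference was -0.31 ± 0.10 (adjusted p = 0.318, limma). Over all members the 95% confidence intervals of the P10 differences lay between -0.71 and 0.55 on the log2 scale.

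The third question was whether a difference remained in adults. At P180, none of the members passed between MatSep and control rats in limma (0.0162% of all transcripts were higher and 0.0162% lower), with a smallest adjusted p of 0.199. At an unadjusted p under 0.05, 1 member was higher (2.65% of all transcripts were) and 7 lower (3.11% of all transcripts were). A negative sign was seen for 49 of the 75 members and for 50.7% of all transcripts, and the median difference was -0.05 over the members. The groups did not overlap for 1 member that was higher, Il5 (0.34% of all transcripts), and 2 that were lower, Il1r1 and Il1rn (0.47% of all transcripts). Intervals of the P180 differences over all members lay between -0.74 and 0.68.

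Il1b had the second smallest p at P180. Its log2 intensities were 5.73, 5.56, 5.93, 5.70 and 5.68 in MatSep rats and 6.37, 6.17, 6.13, 5.75 and 6.22 in control rats. Of the controls 4 were above every MatSep rat and the other lay among them. All of these MatSep arrays and that 1 control array lay under the level of the olfactory receptors. The difference was -0.41 ± 0.10 (adjusted p = 0.199, limma), and it was -0.49 within the run of sample numbers 1 to 6 and -0.30 within 8 to 11. Without that lowest control, replicate 4, it was -0.51 and passed (adjusted p = 0.00762, limma), and over the 31 alternatives the adjusted p ranged from 0.00762 to 0.639. Il1rn had 5.56, 5.29, 5.14, 5.51 and 5.55 in P180 MatSep rats and 5.93, 5.87, 5.57, 5.69 and 5.57 in P180 control rats, a difference of -0.32 ± 0.13 (adjusted p = 0.774, limma), with -0.46 within the run 1 to 6 and -0.10 within 8 to 11. All arrays of Il1rn lay under the level of the olfactory receptors.

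Il31ra had 5.52, 5.81, 5.57, 5.47 and 5.43 in P180 MatSep rats and 5.99, 5.68, 6.18, 5.87 and 5.76 in P180 control rats, with a difference of -0.34 ± 0.11 (adjusted p = 0.518, limma). The highest MatSep rat lay above 2 of the controls. All MatSep arrays and all but 1 of the control arrays of Il31ra at P180 lay under the level of the olfactory receptors. Il5 had 4.91, 4.99, 4.85, 4.83 and 4.79 in P180 MatSep rats and 4.74, 4.73, 4.66, 4.59 and 4.77 in P180 control rats, a difference of 0.18 ± 0.06 (adjusted p = 0.496, limma) on a transcript under the level of the olfactory receptors. Il10ra differed by -0.40 ± 0.16 (adjusted p = 0.738, limma), and by -0.69 within the run of sample numbers 1 to 6 and 0.03 within 8 to 11. The difference was thus not seen within the later run. That run held only 2 rats of each group, among them P180 control replicate 4, at 6.64 the lowest control array.

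The last comparison asked whether the effect of MatSep differed between the ages, by the interaction term, which is also the difference between the age effects of MatSep and control rats. None of the members passed in limma (0% of all transcripts were higher and 0% lower). At an unadjusted p under 0.05, 2 members had a positive interaction (4.08% of all transcripts did) and 8 a negative one (4.96% did). The smallest adjusted p was 0.0816, for Il1r1.

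Il1r1 had log2 intensities at P180 of 7.70, 7.46, 7.74, 7.65 and 7.71 in MatSep rats and 8.06, 8.06, 7.95, 8.07 and 8.12 in control rats. Every MatSep rat was below every control rat at this age. At P10 it had 7.72, 7.92, 8.18, 7.90 and 7.77 in MatSep rats and 7.43, 7.88, 7.71, 7.46 and 7.48 in control rats. At this age 4 of the controls were below every MatSep rat and the other lay among them. The difference was -0.40 ± 0.09 at P180 (1.32-fold lower, adjusted p = 0.199, limma), with -0.39 and -0.41 within the runs of sample numbers 1 to 6 and 8 to 11. At P10 it was 0.31 ± 0.09 (adjusted p = 0.283, limma), with 0.17 and 0.40 within the runs 14 to 17 and 19 to 24. The interaction was -0.70 ± 0.13 (adjusted p = 0.0816, limma). It passed with array weights (adjusted p = 0.0145), with blocks for the runs (0.0459), and without P180 control replicate 4 (0.0382), P10 control replicate 2 (0.0226) or P10 MatSep replicate 1 (0.0365), all in limma. Over the 32 alternatives its adjusted p ranged from 0.0145 to 0.224 and the interaction from -0.78 to -0.63.

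Fibroblast, smooth muscle, adipocyte, macrophage and lymphatic endothelial markers had median MatSep differences of the same signs as Il1r1, although none of them passed. The median MatSep difference over the 9 fibroblast markers was -0.28 at P180 and 0.50 at P10, and over the 7 smooth muscle and pericyte markers it was -0.09 at P180 and 0.19 at P10. Over 7 adipocyte markers it was -0.08 at P180 and 1.11 at P10, where 7 of 7 were higher, and the median interaction was -1.19, with 7 of 7 negative. Over the 15 macrophage markers the median MatSep difference was -0.06 at P180 and 0.26 at P10. Over the 5 lymphatic endothelial markers it was -0.07 at P180 and 0.18 at P10. The part of these markers in the Il1r1 result was not tested. The age difference of Il1r1 in MatSep rats (-0.25) no longer passed after a further quantile normalization (-0.14, adjusted p = 0.253) or without P180 MatSep replicate 2 (adjusted p = 0.0987) or 4 (0.0523), or P10 MatSep replicate 2 (0.0588), 3 (0.114) or 4 (0.0551), all in limma, and its adjusted p ranged from 0.0134 to 0.253 over the 32 alternatives.

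Other members with an unadjusted p under 0.05 for the interaction were Il31ra (-0.51 ± 0.15, adjusted p = 0.299, limma), Il18 (-0.42 ± 0.14, adjusted p = 0.354), Il17rb (0.42 ± 0.14, adjusted p = 0.354), Il10ra, Il12rb2, Il6st, Il1b, Il12a and Il1rn. For Il18 the MatSep difference was -0.09 at P180 and 0.34 at P10, with 0.14 within the run 14 to 17 and 0.46 within 19 to 24. All P10 arrays of Il18 lay under the level of the olfactory receptors. At P10 the macrophage markers had a median MatSep difference of 0.26 and none of the 15 passed. Il12rb2, with 0.65 ± 0.25, and Il17rb were the members with a positive interaction. Il7, Il7r, Il1rl1, Il13ra1 and Il10 did not pass in either MatSep comparison. The second Il13ra1 transcript had MatSep differences of 0.20 at P10 and -0.0011 at P180. None of the genes of the 6 pathway lists passed in the MatSep comparisons or the interaction.

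**Figure D4:**
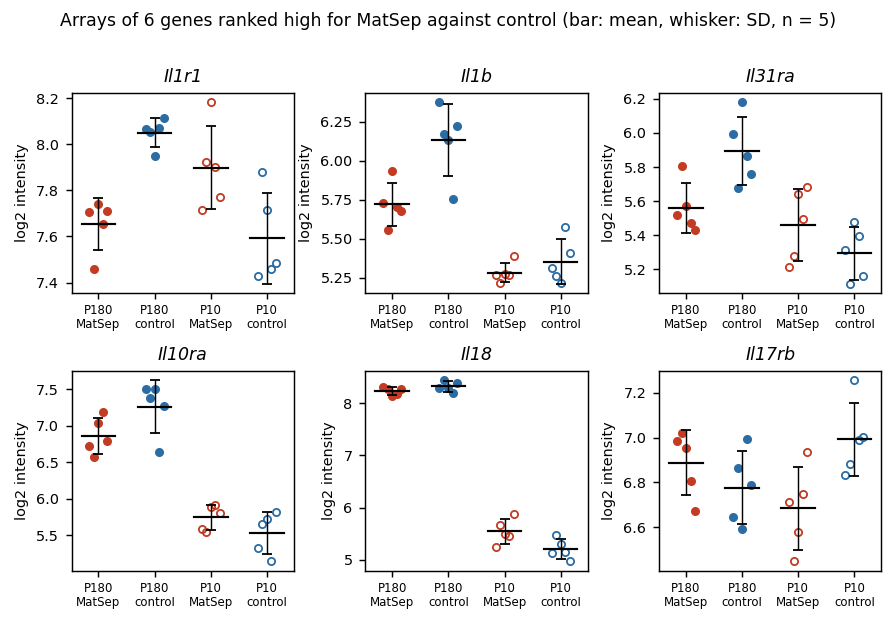
Log2 intensity on each array for 6 members with small unadjusted p values between MatSep and control rats. Groups run from P180 MatSep and P180 control (filled points) to P10 MatSep and P10 control (open points), with a bar at the mean and a whisker of 1 SD (n = 5). For Il1r1 the 5 P180 MatSep points lie below the 5 P180 control points, while at P10 the MatSep mean is above the control mean.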

How the data were processed

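Total RNA of frozen renal vasculature was labelled with biotin after whole-transcriptome amplification and hybridised to RaGene-2_0-st arrays, 1 array for each of 20 rats. The authors deposited linear signal intensity values for each transcript, already normalized across the arrays, and per the labels the processing used RMA and Partek. Their versions and the annotation were not given in the sources used here. The authors' own group means, fold changes and p-values, held in separate deposited sheets, were not used. No column of per-sample values belonged to other samples.

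Groups were taken from the labels. Of 36685 transcripts, 18511 had 1 gene symbol in the platform annotation, 575 had several and 17599 none. Those with 1 symbol were tested on log2 intensity in limma 3.58.1 (R 4.3.3) with a mean for each of the 4 groups, 16 residual degrees of freedom and Benjamini-Hochberg adjustment over all 18511. A difference passed at an adjusted p under 0.05. Values after ± are standard errors of the fit. The fit was tested on simulated data with known changes. The number of arrays limits the precision. Figures were drawn with Python 3.11.15 and matplotlib 3.10.9.

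In each comparison the members named were the 10 with the largest rise and the 10 with the largest fall among those that passed, or, where fewer than 5 passed in a direction, the 5 with the smallest p. To these were added the interleukin genes that the study names and the ligand and receptor of each role list with the smallest p, and up to 4 genes of each pathway list. Other members were named after their values were seen. Members and lists were chosen with earlier results of these data known. Alternatives changed the transcript of a gene, the filter on dim transcripts, the transcripts adjusted over, the arrays in the fit, the normalization, the variance model, the blocks, the threshold and the copy of the values.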

Additional observations from a re-analysis of the deposited data

Results flagged for a closer look

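On 6 occasions a single array stood apart from the other 4 of its group by Dixon's test (critical value 0.71). In all, 164 groups of 5 arrays were tested, and chance at 1 in 20 gives 8.2. The Il10ra transcript was at 6.64 on P180 control replicate 4, where the others were at 7.27 to 7.51, and Il17c was at 4.94 on P180 control replicate 2, where the others were at 5.20 to 5.30. Il18r1 was at 7.44 on P180 MatSep replicate 5 (others 6.93 to 7.03), and Il11ra1, the receptor chain for IL-11, was at 8.17 on P180 MatSep replicate 3 (others 7.75 to 7.86). Il17re was at 7.31 on P10 MatSep replicate 2 (others 6.93 to 7.0), and Il36g was at 4.44 on P10 MatSep replicate 3 (others 4.54 to 4.59).

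Among the 41 named genes, 3 had all 5 MatSep rats below the control mean at P180 and all 5 above it at P10. These 3 were among the members named for a small p of the interaction. The share of all transcripts with this pattern was not counted. All P10 arrays of Il10ra and Il18 lay under the level of the olfactory receptors. The interaction term was -0.70 for Il1r1 (adjusted p = 0.0816, limma), -0.61 for Il10ra (adjusted p = 0.405) and -0.42 for Il18 (adjusted p = 0.354), and none of these passed.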

How the results depend on the processing

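Of 81 values of named genes, 77 kept their sign under all alternatives run, and of 38 that passed, 34 passed in all of them. The others were Il18r1 and Il5ra with age in control rats and Il1r1 and Il20 with age in MatSep rats. The signs that turned were those of differences near 0 that did not pass. Over the fits that left out 1 array, the Il7 difference was -0.0499 to 0.1616 at P10, and at P180 it was -0.0766 to 0.0632 for Il7, -0.0541 to 0.0445 for Il10 and -0.0547 to 0.0059 for Il13ra1. With array weights the P180 difference of Il7 was -0.0164.

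Without transcripts at or under the level of the olfactory receptors, 33 members remained, of which 15 were higher and 4 lower with age in MatSep rats (45.5% and 12.1%, against 27.4% and 32.1% of all 11727 transcripts above it) and 13 higher and 4 lower in control rats (39.4% and 12.1%, against 27.4% and 29.5%). Leaving out 1 array at a time gave 20 to 27 members higher and 4 to 6 lower with age in MatSep rats, and 27 to 30 higher and 5 to 8 lower in control rats. In these fits the share of all transcripts was not counted. The MatSep comparison gave 0 to 1 higher and 0 to 0 lower at P10 (Il1r1 without control replicate 2, adjusted p = 0.0489), and 0 to 0 higher and 0 to 1 lower at P180 (Il1b without control replicate 4). The interaction gave 0 to 0 positive and 0 to 1 negative (Il1r1). Array weights gave 2 members higher in MatSep at P10 (Il18 and Il1r1), amid 303 higher and 182 lower transcripts in the whole table. They also gave 1 member with a negative interaction (Il1r1), amid 99 such transcripts. The runs of sample numbers as a block gave 1 as well (Il1r1), amid 19. At an unadjusted p under 0.05, 3 members were higher and 5 lower at P10, 1 higher and 7 lower at P180, and 2 had a positive and 8 a negative interaction. The cause of these changes was not tested.

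Deviations of rats with the same replicate number correlated at -0.21 to 0.21 at P180 and 0.09 to 0.61 at P10 between MatSep and control. At neither age was every pair over 0.1 (4 of 5 were at P10), and the numbers were not taken to pair the rats. Of the 5 rats in each group, 2 MatSep and 2 control rats at P180 and 4 and 4 at P10 correlated best with the rat of their own number. With the replicate number as a block, 27 members were higher and 6 lower with age in MatSep rats, and 30 higher and 7 lower in control rats. Of the 18511 transcripts, 5321 were higher and 4327 lower in that fit in MatSep rats, and 4784 and 4032 in control rats. With this block 0 members passed in the MatSep comparisons or the interaction.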
